A study of Mus musculus with 10 samples.

Results

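Skin treated with imiquimod and benzamil was compared with untreated skin, to ask which transcripts still differed from untreated skin while benzamil was given. The comparison used 6 of the 10 RNA samples of the series, chosen by their treatment label and by no measured value: benzamil libraries 1 to 4 and untreated libraries 1 and 2. The mice were c57/Bl6 and 6 to 8 weeks old. The treated animals received topical imiquimod with topical benzamil for 6 days, and the treatment label of the untreated samples is "none". The remaining 4 libraries, imiquimod with DMSO (the solvent, called vehicle below), are not one of the compared groups, and their values are set beside the comparison. They entered the same fit, so they helped to set which genes were tested, the scaling and the spread behind each p-value. The compared groups differ by imiquimod, by benzamil and by whatever carried them, so the effects of these agents cannot be told apart here, and the labels give no dose. Each sample is labelled as ear skin, but the study design describes untreated back skin as the control, so body site and treatment cannot be told apart either. Whether replicates came from separate animals is not labelled. The p-values set the difference between groups against a spread estimated over all 10 libraries, and that spread may be technical.

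Imiquimod is a Toll-like receptor agonist whose repeated use on mouse skin gives a psoriasis-like inflammation with a thickened epidermis. Keratinocytes that leave the basal layer replace Krt5 and Krt14 with Krt1 and Krt10, build a cornified envelope from filaggrin-type, small proline-rich and late cornified envelope proteins, and are shed by kallikrein proteases. Inflamed epidermis adds the stress keratins Krt6a, Krt6b, Krt16 and Krt17, the calprotectin subunits S100a8 and S100a9, and cytokines of the IL-1 and IL-36 families. Benzamil blocks the epithelial sodium channel, whose alpha subunit is encoded by Scnn1a.

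The libraries were shallow, and the untreated ones were the shallowest. The benzamil libraries held 139204 to 377240 reads and the untreated libraries 74713 and 71230. Levels are given in CPM, the read count of a gene scaled to a common library size by TMM. A single read was worth 3.03 to 7.94 CPM in the benzamil libraries, and 13.5 and 14.8 CPM in the untreated ones. Ribosomal RNA genes took 31.0% to 45.7% of benzamil reads, and 34.2% and 38.6% of untreated reads. The epidermal keratin transcript Krt10 was abundant in all 6 libraries. None of the 20 listed homeobox genes that mark body position was in the joined tables, so the body site could not be checked with them. A cartilage list, which shares genes with other lists, summed to 148 and 208 CPM untreated and 253 to 651 CPM with benzamil. Its vehicle range was 516 to 1019 CPM, and its bearing on body site was not tested.

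In edgeR's quasi-likelihood test, 128 genes were higher and 82 lower with benzamil than in untreated skin at a Benjamini-Hochberg adjusted p under 0.05. These were 4.0% of the 5245 genes tested, 2.44% in the higher and 1.56% in the lower direction. At an unadjusted p under 0.05 there were 992 genes. In the same fit 22.0% of genes were called for benzamil over vehicle and 18.4% for vehicle over untreated, comparisons that share libraries with this one. The fitted log2 fold change of called genes had a median of 2.36 in the higher direction (0.89 to 9.76) and -1.97 in the lower direction (-4.51 to -0.88). Of the 128 higher genes, 127 had every benzamil library above both untreated libraries, a pattern that 19.5% of all tested genes showed. Of the 82 lower genes, 79 had every benzamil library below both, against 12.9% of all tested genes. Over all tested genes 191 had 0 untreated reads. These passed the filter on low reads through the imiquimod libraries and could not be called lower. Among the higher genes 26 had 0 untreated reads, and their fitted folds have no bound. For such genes the text gives a lower bound that sets the untreated group at 3 reads.

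The balance between higher and lower calls differed between analyses. Higher genes made up 61.0% of calls with TMM scaling and 37.5% when the scaling alone was changed, to total reads (63 higher, 105 lower). With DESeq2, which changed the size factors and the test together, their share was 39.3% (81 higher, 125 lower). It was 78.4% without a filter on low reads, 77.0% in limma, 50% in a fit of the 6 libraries alone and 49.3% among genes with a mean CPM of at least 100. The median log2 fold change of all tested genes was 0.17 with TMM scaling and 0.00 with total reads. Folds below are on the TMM scale and are to be read against that median of 0.17. Leaving out untreated library 1 gave 63 higher and 36 lower genes, and leaving out untreated library 2 gave 70 and 44.

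**Figure D1:**
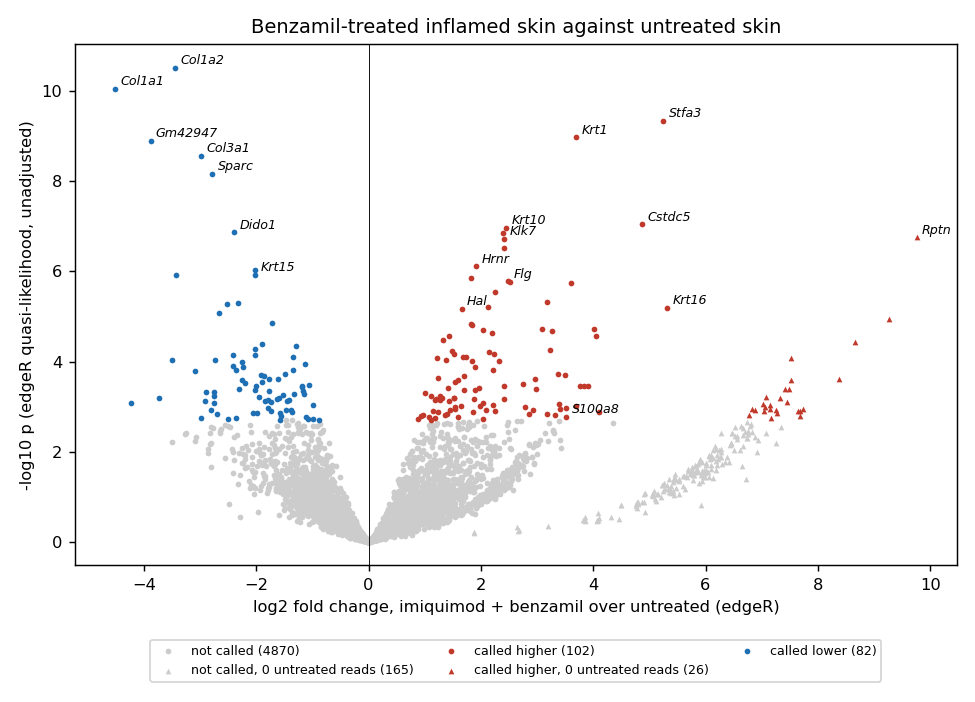
Fitted log2 fold change of imiquimod with benzamil over untreated skin (x axis) against -log10 of the unadjusted edgeR p (y axis) for the 5245 tested genes. Red marks the 128 genes called higher, blue the 82 called lower and grey the rest; triangles are genes with 0 untreated reads, whose fold has no upper bound, and the collagens Col1a1, Col1a2 and Col3a1 lie at the upper left opposite Stfa3 and Krt1.

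The suprabasal keratins Krt1 and Krt10 and the cysteine protease inhibitor Stfa3 were higher with benzamil than in untreated skin, and the fibrillar collagen gene Col1a1 was lower. Krt1, at chromosome 15, 101845426 to 101850794 (mm10, minus strand), measured 148 and 193 CPM in untreated skin and 1771, 3092, 2208 and 1771 CPM with benzamil. All 4 benzamil libraries lay above both untreated ones, and the log2 fold change was 3.70 ± 0.40 (SE, adjusted p = 1.34e-06 in edgeR). In the vehicle libraries Krt1 ranged from 2118 to 4234 CPM.

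Krt10, the partner of Krt1 in suprabasal filaments, lies at chromosome 11, 99385254 to 99389364 (minus strand). It measured 1938 and 2922 CPM in untreated skin and 13636, 14734, 12868 and 11762 CPM with benzamil. The groups did not overlap, with a log2 fold change of 2.45 ± 0.34 (adjusted p = 6.32e-05, edgeR). Vehicle libraries held 5580 to 12095 CPM.

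Stfa3, a stefin A gene of chromosome 16 (36450537 to 36455392, minus strand), measured 40.4 and 29.7 CPM in untreated skin. With benzamil it measured 1007, 2040, 734 and 1628 CPM, every library far above the untreated pair. The log2 fold change was 5.25 ± 0.55 (adjusted p = 8.02e-07, edgeR). Vehicle libraries lay higher still, at 2879 to 3445 CPM, and benzamil was below vehicle by a log2 change of -1.23 ± 0.24 (adjusted p = 0.000803, edgeR). Stfa3 has near-identical neighbours in the stefin cluster, so reads could be split or shared between copies.

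Col1a1, the alpha-1 chain of type I collagen, lies at chromosome 11, 94936224 to 94953042 (plus strand). It measured 9408 and 2788 CPM in untreated skin and 194, 290, 120 and 492 CPM with benzamil. The gap in CPM was wider between the untreated libraries than among the benzamil libraries, but as a ratio it was not. The groups did not overlap (log2 fold change -4.51 ± 0.43, adjusted p = 2.35e-07, edgeR). Vehicle libraries held 75.8 to 283 CPM, and benzamil over vehicle was not called (0.78 ± 0.39, adjusted p = 0.16, edgeR).

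**Figure D2:**
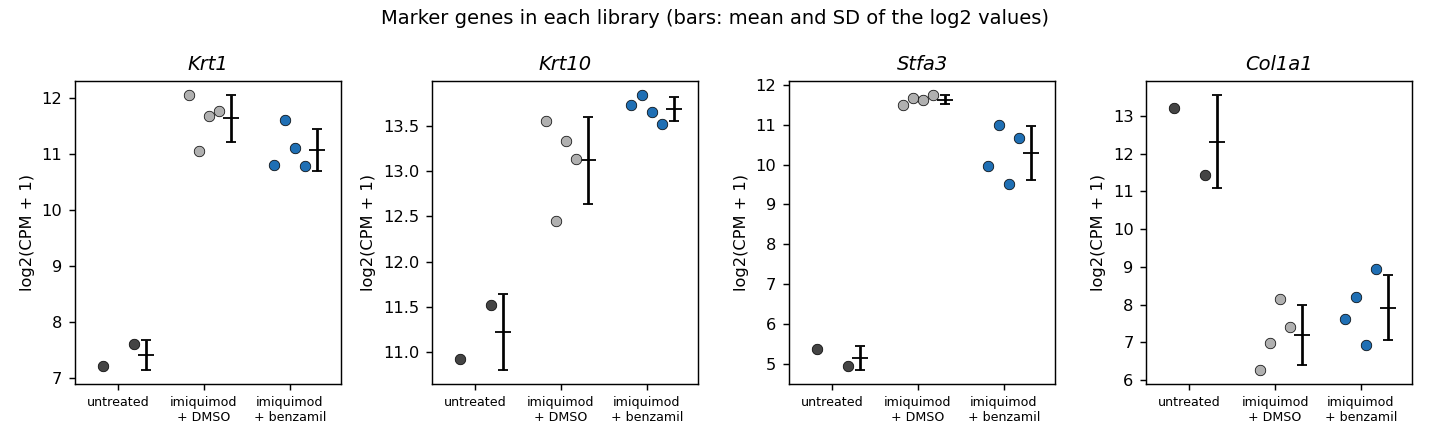
Level of Krt1, Krt10, Stfa3 and Col1a1 in every library as log2(CPM + 1) (y axis), with each group's mean and SD of these log2 values beside its points. For all 4 genes the 4 benzamil libraries lie outside the range of the 2 untreated libraries, with Stfa3 between untreated and vehicle skin.

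The promoters of 6 genes are shown as examples and were not drawn to represent their classes. Krt10 is from suprabasal differentiation, Hrnr and Rptn from the filaggrin-type envelope genes, Stfa3 and Sprr1b from inflamed epidermis, and Col3a1 from the dermal collagens. Promoters of Krt1, Col1a1, Krt16 and Krt6a were looked for and not matched by symbol. Each sequence shown is the stretch of 250 bases before the RefSeq start on build GRCm38.p6, written 5′ to 3′ on the gene's strand. Capitals mark matches, on either strand, to the TATA box letters TATAAA or to the AP-1 letters TGANTCA, which did not overlap each other.
Krt10, chr11:99389365-99389614, minus strand: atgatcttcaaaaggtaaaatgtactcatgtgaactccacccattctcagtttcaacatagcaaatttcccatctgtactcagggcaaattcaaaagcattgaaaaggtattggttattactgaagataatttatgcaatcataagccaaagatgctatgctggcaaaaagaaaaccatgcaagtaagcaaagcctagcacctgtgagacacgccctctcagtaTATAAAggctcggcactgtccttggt
Hrnr, chr3:93319499-93319748, plus strand: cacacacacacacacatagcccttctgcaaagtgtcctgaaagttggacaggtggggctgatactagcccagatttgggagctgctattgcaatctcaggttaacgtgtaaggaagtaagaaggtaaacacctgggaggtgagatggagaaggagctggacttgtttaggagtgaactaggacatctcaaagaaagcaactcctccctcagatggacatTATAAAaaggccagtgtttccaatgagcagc
Rptn, chr3:93393449-93393698, plus strand: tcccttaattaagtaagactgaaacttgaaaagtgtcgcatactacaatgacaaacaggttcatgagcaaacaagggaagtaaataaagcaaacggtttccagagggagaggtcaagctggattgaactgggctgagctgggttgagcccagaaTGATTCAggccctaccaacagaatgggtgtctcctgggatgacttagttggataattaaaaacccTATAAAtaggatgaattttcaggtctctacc
Stfa3, chr16:36455393-36455642, minus strand: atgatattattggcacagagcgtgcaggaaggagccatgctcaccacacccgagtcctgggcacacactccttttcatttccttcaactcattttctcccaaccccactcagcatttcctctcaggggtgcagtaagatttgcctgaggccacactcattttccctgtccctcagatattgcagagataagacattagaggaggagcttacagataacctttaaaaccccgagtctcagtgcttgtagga
Sprr1b, chr3:92438780-92439029, minus strand: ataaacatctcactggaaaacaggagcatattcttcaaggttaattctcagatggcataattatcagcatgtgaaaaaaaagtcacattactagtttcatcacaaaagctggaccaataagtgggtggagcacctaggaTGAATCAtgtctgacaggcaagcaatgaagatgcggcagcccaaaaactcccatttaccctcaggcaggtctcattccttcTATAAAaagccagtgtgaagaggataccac
Col3a1, chr1:45311288-45311537, plus strand: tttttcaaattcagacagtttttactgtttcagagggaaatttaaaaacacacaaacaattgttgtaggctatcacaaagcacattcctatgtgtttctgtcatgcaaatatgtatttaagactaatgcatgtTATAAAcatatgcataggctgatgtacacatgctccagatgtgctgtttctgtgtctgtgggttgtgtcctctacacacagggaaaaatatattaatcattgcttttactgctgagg

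The TATAAA match began 26 bases before the start in Krt10, 31 in Hrnr and Rptn, 30 in Sprr1b and 117 in Col3a1. TGANTCA was found 96 bases before the start of Rptn and 111 before that of Sprr1b. Neither run of letters was in the Stfa3 window. RefSeq promoters could be matched for 97 of the 128 higher and 57 of the 82 lower genes. TATAAA was in 19.6% of the matched higher genes and 14.0% of the lower ones, beside 8.68% of 4136 matched tested genes and 12.4% of all 32851 promoters. TGANTCA was in 14.4% of the higher and 5.26% of the lower genes, beside 5.97% of tested genes and 6.75% of all promoters. A gene was counted if any of its promoters held the letters, whereas the share of all promoters counts each promoter, so these shares differ in unit. These are counts of letters in a window and do not show that a factor binds.

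Suprabasal keratins were higher with benzamil than in untreated skin in 5 of 7 tested members, with 0 lower, beside the 2.44% of all genes called higher. The count was 3 of 7 without untreated library 1. The members' median log2 fold change was 1.74, against 0.17 over all tested genes. Krt2, a keratin made late in epidermal differentiation, measured 7174 and 8780 CPM in untreated skin and 26298, 15252, 29326 and 35666 CPM with benzamil, without overlap (1.74 ± 0.37, adjusted p = 0.00743, edgeR). Its vehicle range was 4703 to 11265 CPM, and benzamil stood 1.65 ± 0.28 above vehicle on the log2 scale (adjusted p = 0.000207, edgeR).

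Krt78, a keratin of differentiated keratinocytes, had 1 read in each untreated library and 161 to 307 CPM with benzamil. Its ratio of read shares was 15.9, with a 95% counting interval of 4.34 to 132. Krt79, a keratin of the hair canal and sebaceous duct, was higher by 1.52 ± 0.32 (adjusted p = 0.00709, edgeR), a call lost without untreated library 1 (adjusted p = 0.0579). Krt80 was above both untreated libraries (323 and 252 CPM) in every benzamil library (334 to 397 CPM), but its log2 fold change was 0.32 and it was not called. Krt77, a suprabasal keratin related to Krt1, was the one tested member with a negative fold (-0.93 ± 0.70, not called), which was 3.08 without untreated library 2. It measured 13.5 and 415 CPM untreated and 164, 150, 60.04 and 0 CPM with benzamil, within the spread of the untreated pair or below it.

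Among cornified envelope precursors and filaggrin-type proteins, 8 of 18 tested members were higher (44.4%, beside 2.44% of all genes) and 0 lower, with a median log2 fold change of 1.45. There were 5 without untreated library 1. Flg, whose filaggrin bundles keratin filaments and is broken down into the skin's natural moisturiser, measured 1696 and 1602 CPM untreated and 6894, 9930, 12988 and 7140 CPM with benzamil. All benzamil libraries exceeded both untreated ones by a wide margin (2.49 ± 0.40, adjusted p = 0.000424, edgeR). The vehicle range of Flg was 1891 to 5147 CPM, below every benzamil library, and benzamil over vehicle was 1.37 ± 0.29 (adjusted p = 0.00131, edgeR).

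Hrnr, a filaggrin-type fused S100 protein, measured 1440 and 1572 CPM untreated and 5380, 5015, 7778 and 4598 CPM with benzamil (1.92 ± 0.30, adjusted p = 0.000272, edgeR). Its vehicle libraries lay between the groups, at 2212 to 3201 CPM. Rptn, a further member of that family, had 0 reads in both untreated libraries and 221, 591, 347 and 254 CPM with benzamil, at least 17.4-fold higher. Vehicle libraries held 505 to 773 CPM of Rptn.

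Other envelope genes called higher were Krtdap, a secreted keratinocyte differentiation peptide (875 and 1216 CPM untreated, 3512 to 4114 CPM with benzamil), and Casp14, the protease that processes filaggrin (40.4 and 14.8 against 182 to 344 CPM). Ivl, the envelope scaffold involucrin, was higher by 2.41 ± 0.59 (adjusted p = 0.0194, edgeR), but lost its call without untreated library 1 (adjusted p = 0.107) or 2 (0.087). Asprv1, a protease of filaggrin processing, was higher by 2.32 ± 0.51 and not called without untreated library 1 (1.58, adjusted p = 0.121), while without untreated library 2 its fold was 4.36. Csta1, a stefin whose copies may share reads, was higher by 2.14 ± 0.45 and not called without untreated library 1 (adjusted p = 0.0707).

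Not every envelope gene stood above untreated skin. Flg2, a close relative of filaggrin, measured 2396 and 2136 CPM untreated and 1262, 1336, 2255 and 1120 CPM with benzamil (-0.61 ± 0.31, adjusted p = 0.298, edgeR), where 3 of 4 benzamil libraries were below both untreated ones. Its vehicle range was 132 to 383 CPM. Lor, the loricrin gene, measured 875 and 2521 CPM untreated and 2414 to 3909 CPM with benzamil, so that the groups overlapped and the difference was not called (0.89 ± 0.38, adjusted p = 0.187, edgeR). Dmkn was not called either (0.36 ± 0.26).

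All 15 tested late cornified envelope genes of the Lce1 and related group had a positive fold, with a median of 1.65, but only 3 were called higher (20%, beside 2.44% of all genes), and 1 without untreated library 1 or without benzamil library 1 or 3. Lce1g, a structural protein of the late envelope, measured 40.4 and 29.7 CPM untreated and 340, 351, 474 and 159 CPM with benzamil (3.23 ± 0.67, adjusted p = 0.00621, edgeR), and its call was lost without untreated library 2 (adjusted p = 0.0581). Lce1b was not called, with 40.4 and 282 CPM untreated and 405 to 504.2 CPM with benzamil. Lce1 genes are near copies of each other, so the split of reads among them is uncertain.

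Of the desquamation genes 8 of 15 tested were higher (53.3%, beside 2.44% of all genes) and 0 lower, and all 15 folds were positive (median 2.03, or 1.68 with the gene at 0 untreated reads set at its bound). Without untreated library 1, 4 were called, and in limma 14. Klk7, the chymotrypsin-like kallikrein that cuts corneodesmosomes, measured 162 and 252 CPM untreated and 1131, 1195, 1021 and 1024 CPM with benzamil (2.41 ± 0.34, adjusted p = 7.72e-05, edgeR). The benzamil libraries were close to each other and all above the untreated pair, and the vehicle range was 999 to 1910 CPM. Klk8, another epidermal kallikrein, had 3 untreated reads in all, and its ratio of read shares was 11.8 (95% counting interval 3.99 to 57.6).

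Cdsn, the corneodesmosome protein that kallikreins cleave, measured 121 and 104 CPM untreated and 364 to 514 CPM with benzamil (2.03 ± 0.39, adjusted p = 0.00285, edgeR). The kallikrein inhibitor Spink5 was higher by 1.21 ± 0.26 (861 and 1098 against 2128 to 2354 CPM), and the desmosomal cadherin Dsc1 by 1.24 ± 0.29. Both lost the call without untreated library 1, with adjusted p = 0.0763 for Spink5 and 0.126 for Dsc1. Dsg1a and the lysosomal protease Ctsd were not called (adjusted p = 0.0777 and 0.0593, edgeR).

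Some differentiation genes, Krt2 and Flg among them, were higher with benzamil than with vehicle. Hal, which makes urocanic acid from histidine in the cornified layer, measured 269 and 282 CPM untreated, 208 to 353 CPM with vehicle and 870, 841, 841 and 929 CPM with benzamil. Vehicle and untreated values overlapped while all benzamil values lay above both (1.66 ± 0.30 over untreated, adjusted p = 0.00124; 1.54 ± 0.19 over vehicle, adjusted p = 5.4e-06, edgeR). Il18, a cytokine stored by keratinocytes, had the same order, at 94.2 and 14.8 CPM untreated, 48.6 to 80.9 CPM with vehicle and 191 to 254 CPM with benzamil. Its call against untreated skin (1.97 ± 0.48, adjusted p = 0.02, edgeR) was lost without untreated library 2 (adjusted p = 0.176), and its fold was 3.96 without untreated library 1.

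**Figure D3:**
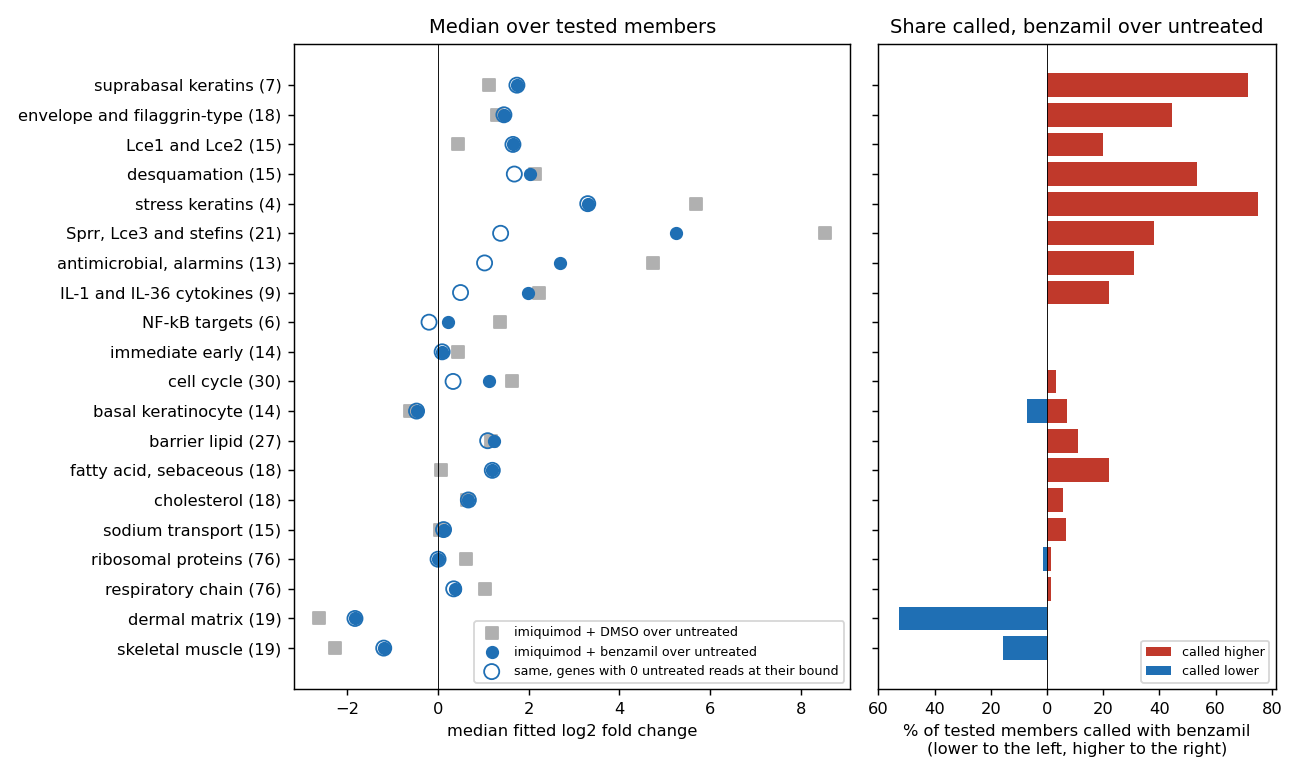
Median fitted log2 fold change over untreated skin of each gene list (left, x axis; number of tested members in brackets) with benzamil in blue and vehicle in grey, and the percentage of members called higher or lower with benzamil (right, x axis). Open circles set genes with 0 untreated reads at their lower bound; keratin, envelope and desquamation lists lie to the right and the dermal matrix list, at -1.83, to the left.

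Stress keratins remained above untreated skin, with 3 of 4 called higher, beside 2.44% of all genes. Krt16 measured 53.8 and 0 CPM in untreated skin and 503.5, 604, 440 and 3113 CPM with benzamil (5.32 ± 0.94, adjusted p = 0.00119, edgeR). Benzamil library 4 was more than the other 3 libraries put together and lay above the vehicle range of 1972 to 2634 CPM, whereas the other 3 lay below it. Without benzamil library 4 the log2 fold change was 4.18 (adjusted p = 2.74e-05, edgeR). Without untreated library 1 the fold had no bound, since untreated library 2 had 0 reads, and 1 of the 4 stress keratins was then called.

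Krt6a measured 67.3 and 104 CPM untreated and 428, 861, 327 and 1318 CPM with benzamil (3.09 ± 0.59, adjusted p = 0.00279, edgeR), all below the vehicle range of 1924 to 4016 CPM. Krt6b, its close copy with which reads may be shared, had 3 untreated reads and a ratio of read shares of 11.4 (95% counting interval 3.84 to 55.6). The Krt6b call was lost without either untreated library and without benzamil library 2 or 4 (adjusted p of 0.059 to 0.162), and the Krt6a call without untreated library 1 (adjusted p = 0.05). Krt17 was not called, with 0 and 119 CPM untreated and 191, 227, 133 and 532 CPM with benzamil.

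Of 21 tested small proline-rich, Lce3 and stefin genes, 8 were higher (38.1%, beside 2.44% of all genes) and 0 lower. The 16 members with 0 untreated reads could not be called lower. Among all 191 tested genes with 0 untreated reads, 26 were called higher, so 2.44% is an unlike baseline for this list. The median fold was 5.25 as fitted and 1.38 with genes at 0 untreated reads set at their bound, since 16 members had none. Leaving out either untreated library left 3 higher members, and leaving out benzamil library 4 left 5. Cstdc5, a stefin A relative, measured 67.3 and 0 CPM untreated and 849, 1853, 474 and 961 CPM with benzamil (4.88 ± 0.67, adjusted p = 5.88e-05, edgeR), below the vehicle range of 3251 to 4600 CPM. Without untreated library 1, the other untreated library had 0 reads and the fold had no bound.

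Sprr1b, a small proline-rich protein that is cross-linked into the envelope of stressed epidermis, had 0 untreated reads and 158, 414, 140 and 294 CPM with benzamil, at least 12.2-fold higher. Its vehicle range was 500 to 1309 CPM. Sprr1a was at least 6.47-fold and Stfa1 at least 4.12-fold higher. Of the Lce3 genes, which accompany barrier repair and psoriasis, Lce3e was at least 3.24-fold and Lce3c at least 3.97-fold higher. The calls of these 4 genes were lost when either untreated library was left out (adjusted p of 0.0844 to 0.158), and for Stfa1 and Lce3c also without single benzamil libraries (adjusted p of 0.0505 to 0.0789).

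Antimicrobial proteins and alarmins were higher in 4 of 13 tested members, or 30.8% beside 2.44% of all genes. Of these 4, 1 is also in the cartilage list. The median log2 fold change was 2.68 as fitted, and 1.03 with the 4 members at 0 untreated reads set at their bound. The count of higher members fell to 2 without benzamil library 1 or 4, and it was lower still without either untreated library. S100a8 and S100a9 together form calprotectin, an alarmin of inflamed skin and of neutrophils. S100a8 measured 135 and 14.8 CPM untreated and 904, 150, 100 and 2486 CPM with benzamil. Benzamil libraries 2 and 3 lay within or just above the untreated values, and libraries 1 and 4 far above them. The fold was 3.52 ± 1.01 (adjusted p = 0.0452, edgeR), and the call was kept in 4 of 14 other analyses. It was lost without benzamil library 1 (adjusted p = 0.0602) or 4 (0.105) and without untreated library 1 (fold 5.95, adjusted p 0.087) or 2 (0.21).

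S100a9 followed the same libraries, with 80.8 and 29.7 CPM untreated and 1225, 200, 107 and 1747 CPM with benzamil (3.84 ± 0.94, adjusted p = 0.0194, edgeR). That call was lost without untreated library 1 (adjusted p = 0.0789) or 2 (0.128). Every benzamil library was below the vehicle ranges, which were 5794 to 9171 CPM for S100a8 and 5202 to 9208 CPM for S100a9. Of the neutrophil markers, Cxcr2 alone was tested, with 0 untreated reads and 6.67 to 20.03 CPM with benzamil, and it was not called. The neutrophil list summed to 13.5 and 0 CPM untreated and 20.01 to 56.8 CPM with benzamil, and its part in the S100a8 and S100a9 values was not tested.

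Defb6, an epithelial defensin, was more even across libraries, at 108 and 44.5 CPM untreated and 276, 344, 367 and 461 CPM with benzamil (2.19 ± 0.43, adjusted p = 0.00317, edgeR). All benzamil libraries lay between the untreated pair and the vehicle range of 721 to 1094 CPM. Without untreated library 2 the adjusted p was 0.0642. Il36a, an epidermal cytokine of the IL-1 family, had 1 untreated read and 91.0, 120, 153 and 151 CPM with benzamil. Its ratio of read shares was 16.9 (95% counting interval 2.97 to 674), and the call was lost without untreated library 2 (adjusted p = 0.0522). Il1rn and Il36rn, which encode the antagonists of IL-1 and IL-36, were not called (1.46 ± 0.51 and 1.08 ± 0.43).

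**Figure D4:**
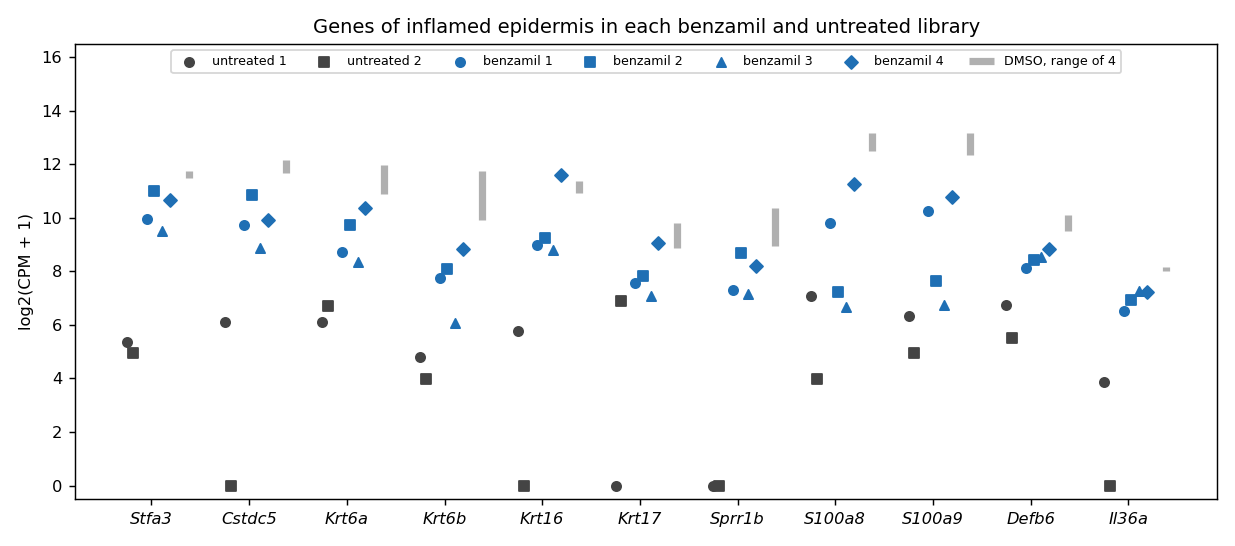
Level of 11 genes of inflamed epidermis as log2(CPM + 1) (y axis) in each untreated (black) and benzamil (blue) library, with symbols for the replicate number and grey bars for the range of the 4 vehicle libraries. Benzamil library 4 has the highest Krt16, S100a8 and S100a9 values of the group, and benzamil library 3 the lowest.

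Of 9 tested cytokine genes, which were IL-1 and IL-36 family genes and Il19, 2 were called higher, Il36a and Il18 (22.2%, beside 2.44% of all genes). The list also named IL-17 genes, but none was among those tested. There were 0 without untreated library 2, 1 with DESeq2 or scaling by total reads and 5 in limma. Chemokine, NF-kB and immediate early genes gave no calls. In edgeR 0 of 6 chemokine and neutrophil receptor genes, 0 of 6 NF-kB feedback genes and 0 of 14 immediate early genes passed, beside 4.0% of all genes. Over the other analyses run, up to 1, 2 and 2 members of these lists were called. Nfkbiz, an NF-kB cofactor induced by IL-17 and IL-36, measured 53.8 and 74.2 CPM untreated and 80.1 to 149 CPM with benzamil, just above the untreated pair (0.84 ± 0.48, adjusted p = 0.349, edgeR). Its vehicle range was 175 to 230 CPM. At these depths a chemokine such as Cxcl2, with 0 untreated reads and 0 to 31.8 CPM with benzamil, could not be compared.

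Proliferation genes gave 1 call among 30 tested, or 3.33% beside the 2.44% of all genes called higher, and 0 to 11 in the other analyses, most in limma. Mki67, which marks cycling cells, measured 121 and 74.2 CPM untreated and 213 to 321 CPM with benzamil (1.43 ± 0.37, adjusted p = 0.0291, edgeR). That call was kept in 6 of 14 other analyses and lost without either untreated library (adjusted p = 0.0583 and 0.169) or without benzamil library 2 or 4 (0.0601 and 0.0501). Top2a was not called (202 and 356 against 373 to 561 CPM).

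Dermal matrix genes were lower with benzamil than in untreated skin in 10 of 19 tested members, with 0 higher, beside the 1.56% of all genes called lower. The median log2 fold change was -1.83. Col1a2, the second chain of type I collagen, measured 2409 and 1973 CPM untreated and 200, 230, 120 and 254 CPM with benzamil (-3.44 ± 0.31, adjusted p = 1.58e-07, edgeR), the smallest p of the comparison. Unlike Col1a1, its untreated libraries were close to each other. Col3a1, the chain of type III collagen, measured 2005 and 964 CPM untreated and 143, 227, 93.4 and 302 CPM with benzamil (-2.99 ± 0.34).

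Sparc, a collagen-binding matrix protein, measured 4684 and 2195 CPM untreated and 406, 457, 260 and 921 CPM with benzamil (-2.78 ± 0.33, adjusted p = 5.08e-06, edgeR). Vehicle libraries were lower still, at 124 to 213 CPM. Type VI collagen was lower in Col6a3 (215 and 148 against 6.67 to 31.8 CPM). Col5a2, Col6a2, Col5a1 and the elastin gene Eln were also called lower, but the first 3 lost their calls without untreated library 1 (log2 fold changes of -2.23, -1.46 and -2.001, adjusted p = 0.0814, 0.222 and 0.351), and Eln without untreated library 2 (-0.50, adjusted p = 0.764). Of the 19 tested members of the list 9 were not called, and 2 of the 19 had a positive fold. Timp3 and Vim, among the most abundant members, were not called.

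The whole matrix list summed to 22276 and 10679 CPM in untreated libraries 1 and 2, to 1728 to 3931 CPM with benzamil and to 1575 to 2314 CPM with vehicle. Without untreated library 1, 6 of its 19 members were called lower. In bulk skin, fewer cells of a type and less of their RNA per cell cannot be told apart, and a larger epidermal share of the RNA lowers the CPM of dermal genes. The summed CPM of the suprabasal keratins went the other way, at 9799 and 12785 untreated against 34537 to 50438 with benzamil. Its part in the collagen values was not tested.

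**Figure D5:**
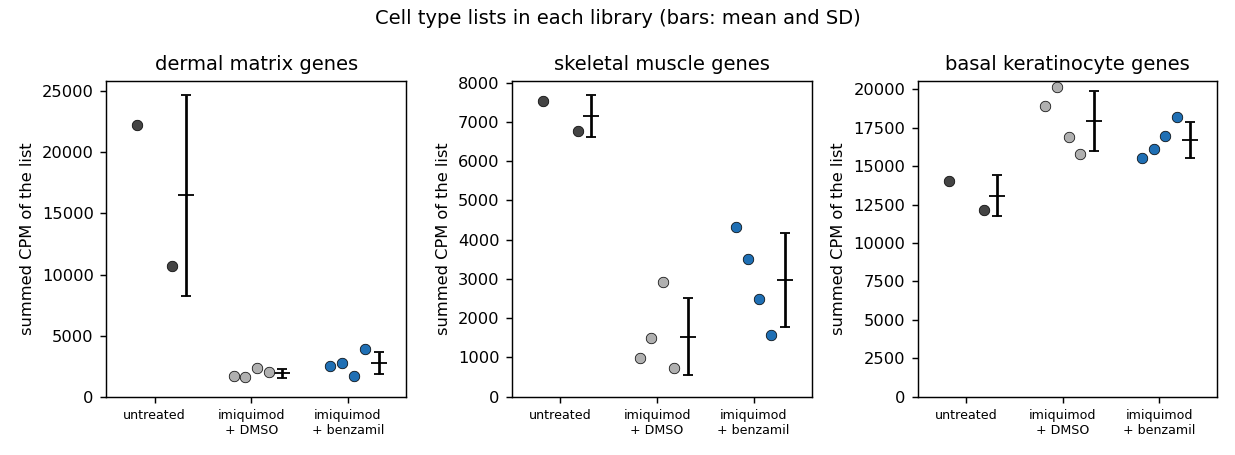
Summed CPM (y axis, from 0) of the dermal matrix, skeletal muscle and basal keratinocyte lists in each library, with each group's mean and SD. Benzamil libraries lie below both untreated libraries for matrix and muscle and above them for the basal keratinocyte sum, of whose 14 genes 4 had a positive fold.

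Skeletal muscle genes, whose source in the samples is not labelled, were lower in 3 of 19 tested members, or 15.8% beside the 1.56% of all genes called lower. The count was 6 with scaling by total reads, and 8 of the 14 tested in a fit of the 6 compared libraries. The list summed to 7524 and 6763 CPM in untreated libraries and to 4325, 3499, 2482 and 1565 CPM in benzamil libraries 1 to 4. Tnnc2, the calcium-binding troponin of fast muscle, measured 471 and 193 CPM untreated and 109, 86.8, 107 and 39.7 CPM with benzamil (-1.90 ± 0.46, adjusted p = 0.0174, edgeR). Tpm2, a tropomyosin, was also lower (log2 fold change -1.35 ± 0.29). Without untreated library 1, 0 members of the list were called, with adjusted p = 0.355 for Tnnc2 (fold -1.01) and 0.157 for Tpm2. The giant sarcomere protein gene Ttn was not called (2100 and 2032 against 278 to 1425 CPM).

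Basal keratinocyte genes gave 1 call in each direction among 14 tested, or 7.14% beside 2.44% of all genes called higher and 1.56% called lower. Their median log2 fold change was -0.48, and 4 of the 14 had a positive fold. Krt15, a keratin of basal and hair follicle stem cells, measured 2342 and 1320 CPM untreated and 613, 481, 394 and 286 CPM with benzamil (-2.02 ± 0.32, adjusted p = 0.000351, edgeR), and 91.4 to 259 CPM with vehicle. Its adjusted p was 0.0535 without untreated library 1. Krt14, the main basal keratin, measured 5101 and 3723 CPM untreated and 7964, 9269, 9166 and 12024 CPM with benzamil (1.12 ± 0.29, adjusted p = 0.0265, edgeR). Its call was lost without benzamil library 4 (adjusted p = 0.0524) or untreated library 2 (0.154), and with scaling by total reads. Its partner Krt5 was not called (0.59 ± 0.29).

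Few immune and vascular markers were measured. Macrophage and dendritic cell genes gave 0 calls among 7 tested and summed to 485 and 593 CPM untreated and 487 to 651 CPM with benzamil. Thy1, the only tested T cell marker, measured 162 and 148 CPM untreated and 73.4 to 91.0 CPM with benzamil (-0.87 ± 0.37, adjusted p = 0.19, edgeR), every benzamil library below both untreated ones. Dct, a melanin synthesis enzyme and the only tested melanocyte marker, measured 67.3 and 59.3 CPM untreated and 12.1 to 23.8 CPM with benzamil, again without a call (-1.90 ± 0.76). No endothelial, mast cell or interferon response gene passed the filter on low reads.

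A minority of lipid genes was called. Of 27 ceramide and barrier lipid genes 3 were higher (11.1%), and of 18 fatty acid and sebaceous genes 4 (22.2%), beside 2.44% of all genes. Krt79 is 1 of these 4 and is also counted with the suprabasal keratins. The fold was positive in 24 of the 27 ceramide genes (median 1.24) and 13 of the 18 fatty acid genes (median 1.20). Over the other analyses, 0 to 15 ceramide genes and 1 to 8 fatty acid genes were called higher, both most in limma. Without untreated library 2 or benzamil library 3, 0 ceramide genes were called, without benzamil library 2 or 4 there was 1, and 1 fatty acid gene was called without untreated library 1. Fabp5, the epidermal fatty acid binding protein, measured 188 and 89.0 CPM untreated and 503.5, 891, 560 and 723 CPM with benzamil (2.25 ± 0.38, adjusted p = 0.00066, edgeR), near the vehicle range of 725 to 1110 CPM. Elovl4, which makes the very long acyl chains of skin ceramides, measured 3540 and 1542 CPM untreated and 4831, 4708, 7805 and 7926 CPM with benzamil (1.31 ± 0.34, adjusted p = 0.0272, edgeR). Its call was kept in 7 of 14 other analyses and lost without untreated library 2 (adjusted p = 0.207) and without benzamil library 3 or 4 (0.0542 and 0.0524), and its fold was 2.12 without untreated library 1. Scd1, a sebaceous desaturase, was not called (7457 and 5191 against 3259 to 5877 CPM). Of 18 cholesterol synthesis genes 1 was called higher (5.56%): Sqle, the squalene epoxidase, by 2.22 ± 0.50, a call lost without untreated library 2 (adjusted p = 0.0971).

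The channel that benzamil blocks was measured near the limit of depth. Scnn1a had 0 and 29.7 CPM in untreated skin and 42.5, 36.7, 33.4 and 71.5 CPM with benzamil, all above the untreated pair by at most a few reads (1.60 ± 0.94, adjusted p = 0.365, edgeR). Its vehicle range was 32.2 to 59.4 CPM. Sgk1, a kinase that keeps the channel at the cell surface, measured 108 and 119 CPM untreated and 121, 50.1, 46.7 and 39.7 CPM with benzamil, so that library 1 alone reached the untreated values (-0.67 ± 0.51, adjusted p = 0.493, edgeR). Of 15 tested genes of sodium transport 1 (6.67%, beside 2.44% of all genes) was called higher, the sodium pump subunit Atp1b3 (0.93 ± 0.26, adjusted p = 0.0449, edgeR). That call was kept in 5 of 14 other analyses, and it was lost whichever single library was left out, with adjusted p of 0.0552 to 0.16.

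Housekeeping classes gave few calls in edgeR. Among 76 cytosolic ribosomal protein genes 1 was higher and 1 lower, with a median log2 fold change of 0.00. Among 76 nuclear genes of the respiratory chain 1 was higher and 0 lower, and limma called 13 higher. Each of these counts of 1 in 76 is 1.32%, beside 2.44% of all genes called higher and 1.56% called lower. The 18S-like ribosomal RNA gene Rn18s-rs5 was lower, at 53583 and 124361 CPM untreated and 19648 to 35018 CPM with benzamil (-1.73 ± 0.32, adjusted p = 0.00231, edgeR). It was not called without untreated library 2 (-0.90, adjusted p = 0.195). The mitochondrial ribosomal RNAs mt-Rnr1 and mt-Rnr2 were not called.

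The genes with the smallest p that belong to none of these groups included several keratinocyte genes. Calm4, a calmodulin-like protein of differentiating keratinocytes, measured 619 and 1127 CPM untreated and 4182, 5372, 4283 and 4495 CPM with benzamil (2.40 ± 0.34, adjusted p = 6.69e-05, edgeR). Blmh, a protease that degrades filaggrin peptides, measured 162 and 119 CPM untreated and 643 to 895 CPM with benzamil. Ehf, an epithelial ETS factor, measured 108 and 59.3 CPM untreated and 334 to 699 CPM with benzamil. In all 3 genes the groups were far apart.

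The lower direction held transcripts with no skin-specific role that could be named. Gm42947, a lincRNA of chromosome 3 (156040102 to 156045856, minus strand), measured 5653 and 9092 CPM untreated and 273, 244, 961 and 588 CPM with benzamil (-3.88 ± 0.42, adjusted p = 1.34e-06, edgeR). Its vehicle range was 33.2 to 158 CPM, below every benzamil library. Dido1 measured 310 and 311 CPM untreated and 47.6 to 73.4 CPM with benzamil (-2.40 ± 0.34), and Pik3r1, a regulatory subunit of PI3 kinase, 619 and 460 against 93.5 to 191 CPM (-2.02 ± 0.32). Pnisr and Arglu1, nuclear proteins linked to splicing, were lower, with log2 fold changes of -1.30 ± 0.27 and -1.12 ± 0.25. Pnisr lost its call without untreated library 1 (-0.81, adjusted p = 0.206), and Arglu1 without untreated library 1 (0.104) or 2 (0.0731). The imprinted gene Peg3 and the imprinted noncoding RNA Meg3 were lower as well. Meg3 measured 148 and 89.0 CPM untreated and 13.3 to 20.03 CPM with benzamil, a call lost without untreated library 1 (adjusted p = 0.17), and Peg3 108 and 133 against 6.07 to 31.8 CPM, a call lost without untreated library 1 (0.0679) or 2 (0.106).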

How the data were processed

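RNA of mouse skin was made into libraries with a 3′ mRNA kit that adds unique molecular identifiers, from 500 ng of RNA per sample, and sequenced with a 150-cycle kit, per the labels' protocols. STAR, featureCounts, DESeq2 and the mm10 genome are named in the submitters' processing notes, with versions not given in the sources used here. Collapsing of identifiers is not stated, and intervals and bounds cover counting error only. The authors deposited log2 values per gene, named as variance-stabilised by DESeq2, in 2 tables that were each normalized alone. They also deposited result tables with a mean signal per gene (counts divided by size factors), used only to check the inversion. A deposited count table of 61533 identifiers, all human, was not used in any comparison.

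The transform was inverted to reads, and 100% of values in each library came out whole within 0.001 reads. The planned test for counts was run on these recovered reads, since the 2 log2 tables do not share a scale. The tables had 9779 genes in common. Another 874 genes (benzamil table) and 41 (untreated table) had no partner and were not analysed here. In edgeR 4.0.16 (R 4.3.3), filterByExpr (at least 10 reads at the typical depth, 15 in all) kept 5245 genes. All 10 libraries entered one quasi-likelihood fit with TMM scaling and a mean per group, and p-values were adjusted by Benjamini-Hochberg over all genes tested. SEs were taken from the fold and its F statistic and are approximate. Bounds set a group with 0 reads at 3 reads, and intervals are exact at 95%. Positions come from GENCODE M21.

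The members, gene lists and rules were chosen with earlier results of these data known. The text names the 4 markers, the genes of smallest p in each direction with groups that did not overlap (drawn from the first 12), in each list up to 4 called members and up to 2 uncalled ones of highest level, Scnn1a and Sgk1, and the ribosomal RNA genes. Hal, Casp14, Ivl, Krt2, Flg2, Stfa1, Lce3e, Lce3c, Dsc1, Col5a1, Eln, Asprv1, Csta1, Pnisr, Arglu1, Meg3 and Peg3 fall outside that rule and were chosen after their values were seen. Alternatives were DESeq2 1.42.0, limma 3.58.1, other scalings and filters, a replicate block, and leaving out each library.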

Additional observations from a re-analysis of the deposited data

Results flagged for a closer look

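In 6 of 129 sets of benzamil values looked at, one library stood far from the other 3 by Dixon's criterion, which flags about 1 in 20 sets by chance. Benzamil library 4 had the highest Krt16 (3113 CPM), the highest Il1rn (246 CPM) and the highest macrophage and dendritic cell sum (651 CPM), and the lowest Timp3 (341 CPM, with the other 3 libraries at 373 to 374 CPM). Benzamil library 1 had the highest Sgk1 (121 CPM) and the highest Tpm2 (300.3 CPM).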

How the results depend on the processing

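The counts of 128 higher and 82 lower genes moved with the analysis. They were 81 and 125 with DESeq2, 63 and 105 with scaling by total reads, 130 and 74 without ribosomal RNA genes, 200 and 55 without a filter on low reads, 74 and 76 at a mean CPM of at least 100, 77 and 77 in a fit of the 6 compared libraries alone, and 651 and 194 in limma. Leaving out single libraries gave 63 to 111 higher and 36 to 71 lower genes. The cause of these shifts was not tested, except that a fit without an untreated library has 1 untreated sample, assumed to vary like the other groups. Of the 128 and 82 genes, 45 and 25 were called again without untreated library 1, and 48 and 31 without untreated library 2.

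A fit with the replicate number as a block gave 84 higher and 63 lower genes. Libraries 1 of both groups deviated in opposite directions (correlation -0.11) and libraries 2 together (0.116), values that mirror each other because the untreated group has 2 libraries. With so few libraries these values cannot show whether samples of the same number were paired, and the labels give only the number.

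Of the 64 called genes named in the text, 28 were called in each alternative that could be run for them, among them Krt1, Krt10, Stfa3, Col1a1, Col1a2, Col3a1, Sparc, Flg, Hrnr, Rptn, Klk7 and Gm42947. DESeq2 gave no adjusted p for Krt16, which was called in the other 13 analyses. Vim, not called, had folds of -1.60 to 0.23 over the fits that left out 1 library, higher than 0 without untreated library 1 alone. Krt77, not called, had folds of -1.83 to 3.08, higher than 0 without untreated library 2 alone. Depth limited the comparison most in untreated skin, where 1131 of 5245 tested genes had 3 or fewer reads.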
